A study of Mus musculus with 17 samples.

Results

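Lipid and cholesterol handling was followed through 8 genes, Apoe, Abca1, Abca9, Abcg1, Lpl, Cd36, Sqle and Gpam, in 6 groups of sorted mouse cells. All probe sets annotated to exactly one of these symbols were taken, which gave 13 of the 45037 probe sets of the array table, from 7 of the 8 genes. Abca1 was not analysed here. Apoe and Sqle had 1 probe set each, Abca9, Abcg1, Lpl and Gpam 2 each, and Cd36 3. Probe sets of 1 gene share their target and are not separate evidence.

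Cells keep their cholesterol within bounds by making it, by taking up lipoproteins and by passing the excess to acceptors outside the cell. Macrophages, which clear dying cells and lipoproteins, are known for strong uptake through scavenger receptors and for export through ATP-binding cassette (ABC) transporters, both under the control of nuclear receptors that sense sterols and fatty acids. Apoe encodes apolipoprotein E, a lipoprotein component that carries cholesterol away from macrophages, and Abcg1 a transporter that exports cholesterol to lipoproteins. Abca9 belongs to the A subfamily of ABC transporters, which move lipids. Lpl encodes lipoprotein lipase, which splits the triglycerides of lipoproteins, and Cd36 a scavenger receptor for oxidised lipoproteins and long-chain fatty acids. Sqle encodes squalene epoxidase, a controlled enzyme of cholesterol synthesis, and Gpam the mitochondrial acyltransferase that starts glycerolipid synthesis.

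The study measured RNA from cells of mice aged 6 to 10 weeks on 17 Affymetrix arrays. Spleens of wild-type mice gave 3 pools of macrophages (CD11c-CD11b+MCSFR+) and 3 pools of granulocytes (CD11c-CD11b+Ly6C+MCSFR-). Bone marrow gave myelo-dendritic progenitors (MDPs), precursors of macrophages and dendritic cells, all gated as lineage-sca1-CD127-CD117+MCSFR+. The MDPs were 3 wild-type pools, 3 pools labelled IRF8 knockout (genotype IRF8-deficient), 3 pools of reporter mice with VENUS expression (titled IRF8_PAC_MDP) and 2 pools without VENUS expression (titled IRF8_neg_MDP). IRF8 is a transcription factor of the macrophage and dendritic lineages. Both VENUS groups also carry the genotype label IRF8-deficient, and the labels do not say which allele is meant. In the design text a spleen, wild-type or IRF8-deficient MDP pool combines 5 mice, and for the VENUS pools the sources used here give no number. Levels are the deposited log2 values, so 1 unit is a doubling. The lower quartile of an array lay between 3.18 and 3.42, its median between 4.33 and 4.48 and its upper quartile between 5.96 and 6.41.

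The labels were checked against marker genes. Irf8 itself was at 10.27, 10.56 and 10.19 in wild-type MDPs and at 10.32, 10.42 and 10.18 in the MDPs labelled knockout on 1 of its 2 probe sets. No label tells which exons the knockout removed, so this level checks nothing, and the group is called knockout-labelled. The VENUS-positive pools had 10.72, 10.81 and 11.10 on that probe set and the VENUS-negative ones 5.49 and 6.25. The mean of 9 of 10 listed granulocyte markers was 12.19 to 12.45 in granulocytes and 6.14 to 7.84 in macrophages, and that of 7 of 8 macrophage and monocyte markers was 8.01 to 8.19 in macrophages and 5.82 to 6.33 in granulocytes. Granulocytes also had 6 natural killer cell markers at a mean of 7.20 to 7.99, against 5.20 to 5.46 in macrophages. The mean of the 5 measured of 6 red pulp macrophage markers was higher in granulocytes (6.53 to 7.001) than in macrophages (5.84 to 6.07), against the macrophage and monocyte list. Its members did not go alike. Slc40a1 was at 10.12 to 10.55 in granulocytes and 5.19 to 5.63 in macrophages, while Spic was at 3.54 to 3.74 and 5.39 to 5.53. Hmox1 overlapped between the 2 groups. Wild-type MDP pool 3 stood apart from pools 1 and 2: its granulocyte marker mean was 8.65 against 4.89 and 4.69, and its mean over 6 of 7 mast cell, basophil and eosinophil markers 7.71 against 3.99 and 3.86. Its mean over 9 of 10 erythroid and megakaryocyte markers was 8.66 against 5.85 and 6.62. VENUS-negative MDPs had the 5 MDP markers at a mean of 6.40 and 6.56, where the other MDP pools ran from 8.19 to 9.02. Of that list, which includes Irf8 itself, Flt3, Cd34, Irf8 and Csf1r were lower than in VENUS-positive MDPs. Kit was higher, at 8.20 and 8.38 against 6.62 to 7.40. VENUS-negative MDPs were further marked by another list. They had 9 of 10 erythroid and megakaryocyte markers at a mean of 10.06 and 9.18, against 5.65 to 6.16 in VENUS-positive MDPs. In such sorted bulk samples, fewer cells that express a gene and less RNA per cell cannot be told apart.

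Differences were tested in 1 model over all probe sets, and a probe set was called at an adjusted p under 0.05. Between knockout-labelled and wild-type MDPs, 1 of the 13 probe sets was called, an Abca9 one that was higher, where 0.575% of all probe sets were called, 0.266% higher and 0.309% lower. Between VENUS-negative and VENUS-positive MDPs, 2 of the 13 were called (Apoe higher, Abca9 lower), where 4.44% of all probe sets were, 2.2% higher and 2.24% lower. Macrophages differed from granulocytes in 10 of the 13, 9 of them higher, against 24.9% of all probe sets, 13.6% higher and 11.3% lower. Macrophages differed from wild-type MDPs in 9, 8 of them higher, against 18.9%, 9.61% higher and 9.28% lower. Granulocytes differed from wild-type MDPs in 6, 2 higher and 4 lower, against 38.4%, 20.4% higher and 17.9% lower. The median difference of the 13 probe sets was 2.12 log2 units for macrophages minus granulocytes, where that of all probe sets was -0.10. For macrophages minus wild-type MDPs these medians were 1.09 and 0.00, and for granulocytes minus wild-type MDPs -0.17 and 0.11. The knockout comparison gave -0.01 and 0.01, and the VENUS comparison -0.06 and -0.01. Pools of the compared groups did not overlap for 4 of the 13 probe sets in the knockout comparison, against 13.6% of all probe sets. For VENUS this was 6, against 27.7%. It was 11 for macrophages against granulocytes (44.5% of all), 11 for macrophages against wild-type MDPs (39.8%) and 8 for granulocytes against them (48.8%). The comparisons with wild-type MDPs share those 3 arrays, and the spleen comparisons share their spleen arrays, so their values are set side by side and not tested against each other.

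**Figure D1:**
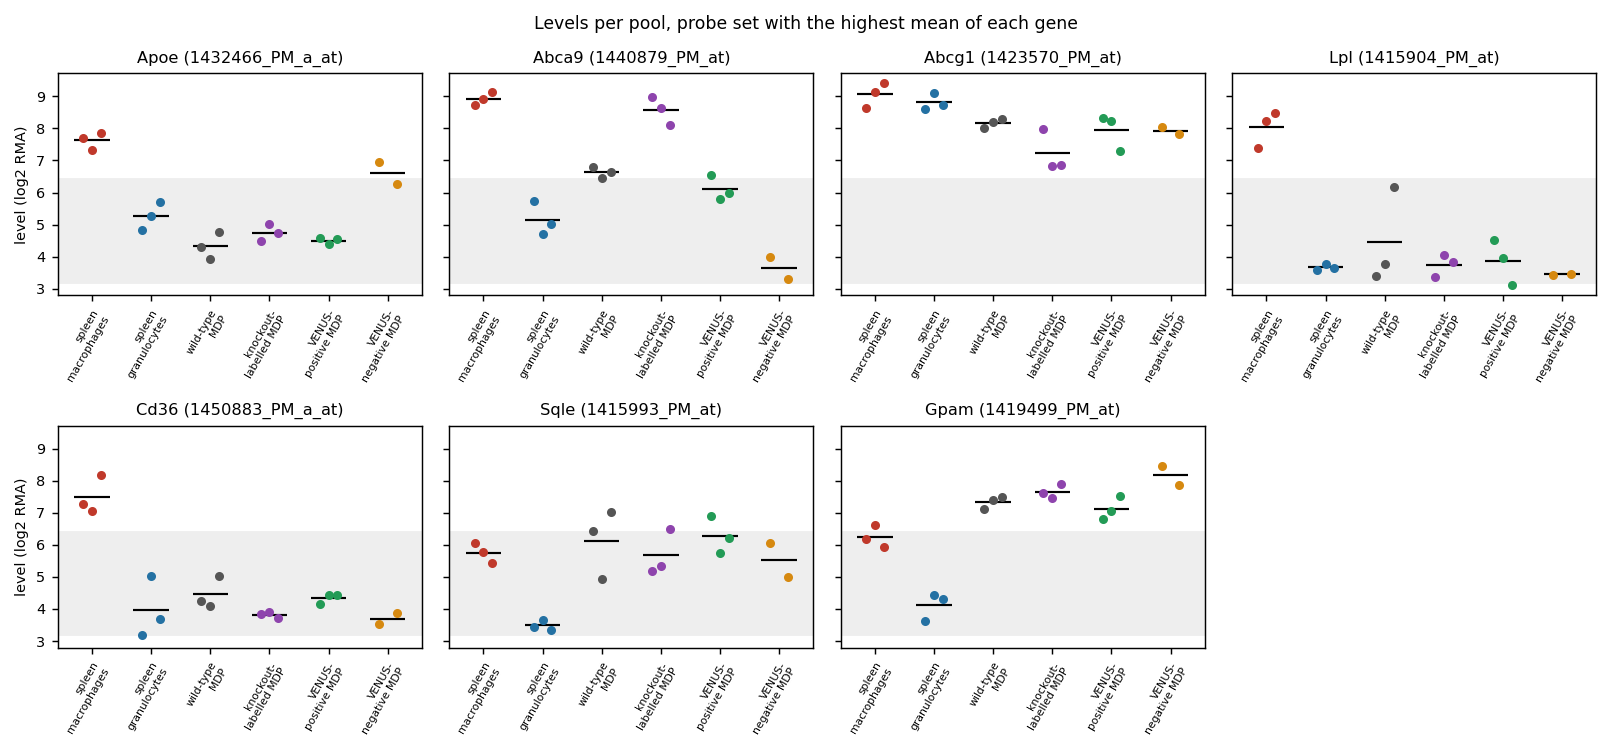
Level (log2 RMA) of the brightest probe set of each of the 7 genes on the 17 arrays by group, each point a pool, each line a group mean, and the grey band from the lowest lower quartile of the arrays to their highest upper quartile (3.18 to 6.41). Macrophages are highest for Apoe, Lpl and Cd36, knockout-labelled MDPs overlap with them for Abca9, and granulocytes are lowest for Sqle and Gpam.

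The upstream sequences of 3 genes are shown, that of Abca9 because its level turned in direction between the MDP comparisons, and those of Cd36 and Gpam because they differed between the spleen cells and held 1 of the motifs searched. Each is the stretch of 250 bases before an annotated RefSeq start in assembly GRCm38.p6, minus strand, 5′ to 3′. Their positions are chr11:110168154-110168403 for Abca9, chr5:17835897-17836146 for Cd36 and chr19:55099478-55099727 for Gpam, for which the other entry is not shown. Capitals mark the nuclear receptor half-site AGGTCA, or its reverse complement TGACCT.
Abca9: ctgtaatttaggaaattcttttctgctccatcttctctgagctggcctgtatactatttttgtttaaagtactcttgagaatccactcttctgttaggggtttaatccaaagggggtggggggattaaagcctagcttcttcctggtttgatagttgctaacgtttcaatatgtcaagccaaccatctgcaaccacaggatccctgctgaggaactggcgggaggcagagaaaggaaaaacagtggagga
Cd36: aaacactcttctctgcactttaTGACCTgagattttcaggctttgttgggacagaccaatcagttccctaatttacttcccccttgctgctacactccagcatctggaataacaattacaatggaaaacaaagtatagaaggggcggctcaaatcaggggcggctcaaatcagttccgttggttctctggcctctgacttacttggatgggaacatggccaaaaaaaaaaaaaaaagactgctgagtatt
Gpam: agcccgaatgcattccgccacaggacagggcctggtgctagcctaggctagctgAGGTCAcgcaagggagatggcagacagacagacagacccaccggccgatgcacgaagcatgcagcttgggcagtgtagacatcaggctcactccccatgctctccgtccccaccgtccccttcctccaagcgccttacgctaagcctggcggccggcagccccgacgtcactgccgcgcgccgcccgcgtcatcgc
The Cd36 window held 1 half-site on the opposite strand, 228 to 223 bases before the start, and the Gpam window 1 on the strand of the gene, 196 to 191 bases before it. The Abca9 window, the 3 Apoe windows and the other Gpam window held no half-site. On either strand, 14.0% of 32851 windows of that length held this motif. The windows were also searched on both strands for the sterol regulatory element TCACNCCAC (1.05% of windows) and the ETS core AGGAAGT (7.69%). Neither was matched in the 3 windows shown, nor in the 3 Apoe windows or the other Gpam window, which only says that these letters are not there. No upstream sequence was available here for Abcg1, Lpl and Sqle, so these 3 genes were not searched.

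Apoe was high in macrophages, intermediate in VENUS-negative MDPs and low in the other 3 MDP groups. Its levels were 7.70, 7.32 and 7.85 in macrophages and 6.94 and 6.27 in VENUS-negative MDPs. Granulocytes had 4.84, 5.28 and 5.69. Wild-type MDPs had 4.30, 3.93 and 4.77, knockout-labelled MDPs 4.48, 5.03 and 4.73, and VENUS-positive MDPs 4.57, 4.39 and 4.55. Every macrophage pool was above every VENUS-negative pool, and both were above every granulocyte pool. The remaining groups followed in the order granulocytes, knockout-labelled, VENUS-positive and wild-type MDPs, and each overlapped with the next. All granulocyte pools were above all wild-type ones.

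Apoe was 4.30-fold higher in MDPs without VENUS than in those with it (6.61 ± 0.47, SD, n = 2, against 4.50 ± 0.10, n = 3; log2 difference 2.11, SE 0.29, adjusted p = 5.37e-04). Knockout-labelled minus wild-type was 0.42, with an overlap that wild-type pool 3 alone made, and 0.64 without that pool (adjusted p = 0.557). Macrophages exceeded VENUS-negative MDPs by 1.01 log2 units (adjusted p = 0.0239). They exceeded granulocytes by 2.35 (adjusted p = 1.18e-05) and wild-type MDPs by 3.29 (9.79-fold, adjusted p = 7.57e-07). Granulocytes were above wild-type MDPs by 0.94 (adjusted p = 0.0108), a call lost without granulocyte pool 3 (adjusted p = 0.0556), without wild-type pool 2 (0.0531) and in a fit of those 6 arrays alone (0.0504). The VENUS-negative pools also carried the erythroid and megakaryocyte markers, with a summed level over 9 genes of 82.6 to 90.5 against 50.8 to 55.4 in VENUS-positive MDPs, and the mast cell, basophil and eosinophil markers, with a sum over 6 genes of 42.2 to 42.7 against 21.1 to 23.6. No gene of either list was below the array median in both VENUS-negative pools. Wild-type pool 3 had sums of 77.9 and 46.3 on these lists, with Apoe at 4.77. Its mean over the 5 MDP markers was 8.55, against 6.40 and 6.56 in the VENUS-negative pools, so these are unlike mixtures. The part of these markers in the Apoe difference was not tested. The 7 macrophage and monocyte markers were lower in the VENUS-negative pools, with a sum of 29.4 to 29.8 against 35.9 to 37.4. Of the 7, 4 were below the array median in both VENUS-negative pools.

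Abca9 moved in opposite directions in the comparisons of MDPs. On its brighter probe set it was 6.81, 6.46 and 6.63 in wild-type MDPs and 8.98, 8.64 and 8.10 in knockout-labelled ones, while macrophages had 8.74, 8.91 and 9.13. VENUS-positive MDPs had 6.54, 5.79 and 5.98, and VENUS-negative MDPs 3.99 and 3.29. Granulocytes had 5.74, 4.70 and 5.03. All knockout-labelled pools were above all wild-type pools, and 1 of them lay within the macrophage range while the others were below it. Both VENUS-negative pools were below every other array, and the wild-type and VENUS-positive pools overlapped.

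Knockout-labelled MDPs were 3.84-fold above wild-type ones (8.57 ± 0.44 against 6.63 ± 0.18, n = 3 each, log2 difference 1.94, SE 0.29, adjusted p = 0.00562). In a fit of those 6 arrays alone the adjusted p was 0.0726, and without wild-type pool 3 it was 0.0184 at the same difference. The 9 erythroid and megakaryocyte markers summed to 38.4 to 40.2 in knockout-labelled and 52.7 to 77.9 in wild-type MDPs, and the 9 granulocyte markers to 51.9 to 58.4 and 42.2 to 77.8. The part of either in the Abca9 difference was not tested. Macrophages and knockout-labelled MDPs differed by 0.36 log2 units, within their overlap (adjusted p = 0.521). VENUS-negative MDPs were below VENUS-positive ones by 2.47 log2 units on average (3.64 ± 0.49 against 6.10 ± 0.39, log2 difference -2.47, SE 0.33, adjusted p = 3.78e-04), and no fold is given because 1 of their pools lay in the range of the arrays' lower quartiles. The marker differences given with Apoe hold for these same pools. Their part in this Abca9 difference was not tested.

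The dimmer Abca9 probe set had 5.40, 4.63 and 5.40 in wild-type and 6.36, 6.32 and 5.94 in knockout-labelled MDPs, which did not overlap (log2 difference 1.06, SE 0.39), yet it missed the threshold (adjusted p = 0.405). VENUS-positive MDPs had 6.21, 5.60 and 4.14 and VENUS-negative ones 3.85 and 3.64, a log2 difference of -1.58 (SE 0.44, adjusted p = 0.0588). VENUS-positive pool 3 was the low one, and without it the difference was -2.16 (adjusted p = 8.54e-04). Macrophages had 5.43, 5.77 and 6.00 and granulocytes 3.47, 3.89 and 3.77. Across the 17 arrays the Abca9 probe sets correlated at r = 0.83, which describes arrays that fall into groups.

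In the spleen, Abca9 was 13.7-fold higher in macrophages than in granulocytes on the brighter probe set (log2 difference 3.77, SE 0.29, adjusted p = 4.25e-07) and 2.02 log2 units higher on the dimmer one (adjusted p = 0.00148). Granulocytes were below wild-type MDPs on both, with log2 differences of -1.48 (adjusted p = 0.00107) and -1.43 (adjusted p = 0.00977). Macrophages were above wild-type MDPs by 2.30 on the brighter probe set (adjusted p = 5.50e-05) and by 0.59 on the dimmer one, which was not called (adjusted p = 0.381).

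**Figure D2:**
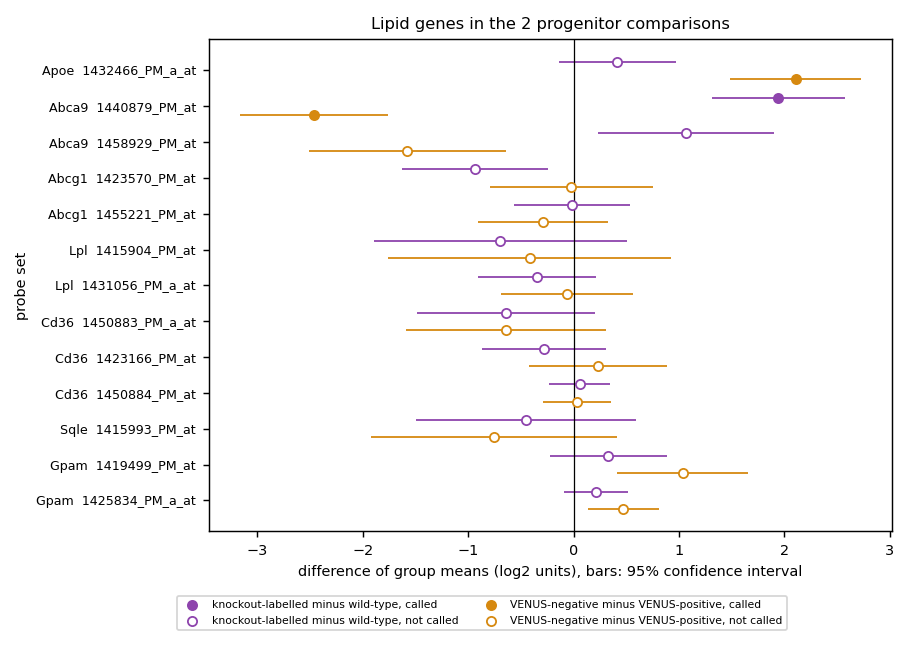
Difference of group means in log2 units (x axis) for the 13 probe sets (y axis), knockout-labelled minus wild-type and VENUS-negative minus VENUS-positive MDPs, with 95% confidence intervals. The brighter Abca9 probe set lies at 1.94 in the former and -2.47 in the latter, and Apoe at 2.11 in the latter.

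The VENUS and knockout comparisons use different arrays, so the difference between their effects was tested directly. It was -4.41 log2 units for the brighter Abca9 probe set (VENUS effect minus knockout effect, adjusted p = 5.74e-05), -2.64 for the dimmer one (adjusted p = 0.0282) and 1.69 for Apoe (SE 0.39, adjusted p = 0.0351). These were 3 of the 13 probe sets, against 2.35% of all probe sets, 1.22% with a positive and 1.13% with a negative difference. The Apoe difference lost its call in 9 of 17 fits that left out 1 array, with an adjusted p of up to 0.167, and the dimmer Abca9 one in 6, with up to 0.0902. In a fit of those 4 groups alone the adjusted p values were 0.0665 and 0.118. The brighter Abca9 probe set kept its call in all of these fits. The compared groups also differed in cell type markers, and the part of these in the differences was not tested.

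Abcg1, the exporter to lipoproteins, showed no called difference in the 2 MDP comparisons, and its probe sets did not order the spleen cells alike. On the brighter one macrophages had 8.64, 9.13 and 9.40, granulocytes 8.61, 9.10 and 8.72, and wild-type MDPs 8.02, 8.21 and 8.29. Knockout-labelled MDPs had 7.996, 6.84 and 6.87, VENUS-positive MDPs 8.34, 8.23 and 7.29, and VENUS-negative MDPs 8.03 and 7.83. Knockout-labelled pools were all below the wild-type ones, by 0.94 on average (log2 difference -0.94, SE 0.32, 95% interval -1.63 to -0.25), which was not called (adjusted p = 0.355). Macrophages and granulocytes overlapped, at a difference of 0.25 (adjusted p = 0.622). Neither was called against wild-type MDPs on this probe set, with log2 differences of 0.89 for macrophages (adjusted p = 0.0737) and 0.64 for granulocytes (adjusted p = 0.134). In fits of the compared groups alone both were called (adjusted p = 0.018 and 0.0358).

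On the dimmer Abcg1 probe set granulocytes had 6.33, 6.90 and 7.51, above macrophages at 5.91, 6.11 and 6.05. The 11 MDP pools lay between 4.56 and 5.55 and overlapped among their groups. Granulocytes were above wild-type MDPs by 1.98 log2 units (3.95-fold, adjusted p = 2.57e-05), and macrophages were above them by 1.09 (adjusted p = 0.00712). Macrophages were below granulocytes (log2 difference -0.89, adjusted p = 0.0201), a call lost without macrophage pool 1 (adjusted p = 0.068), macrophage pool 3 (0.0512), granulocyte pool 2 (0.0506) or granulocyte pool 3 (0.0934), and in a fit of those 6 arrays alone (0.0593). The 6 natural killer cell markers summed to 43.2 to 47.9 in granulocytes and 31.2 to 32.8 in macrophages, none of them below the array median in granulocytes, and their part in this difference was not tested.

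Lpl, the lipase of lipoprotein uptake, was high in macrophages and low elsewhere, with 1 exception. Its brighter probe set had 7.39, 8.24 and 8.48 in macrophages and 3.60, 3.76 and 3.66 in granulocytes. Knockout-labelled MDPs had 3.38, 4.05 and 3.83, VENUS-positive MDPs 4.51, 3.96 and 3.11, and VENUS-negative MDPs 3.43 and 3.46. Wild-type MDPs had 3.41, 3.77 and 6.17, so pool 3 was above all other MDP and granulocyte arrays. The red pulp macrophage markers were also higher in that pool, with a summed level of 31.1 over 5 of 6 genes, where the other wild-type pools had 21.2 and 22.3. Granulocytes had a sum of 32.6 to 35.0 on these markers, with Lpl at 3.60 to 3.76. Single markers differed between the 2, with Slc40a1 at 10.12 to 10.55 and Spic at 3.54 to 3.74 in granulocytes. In wild-type pool 3 Slc40a1 was at 7.47 and Spic at 4.05. The part of these markers in the Lpl level of pool 3 was not tested.

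Macrophages exceeded granulocytes in Lpl by 4.37 log2 units on the brighter probe set (SE 0.56, adjusted p = 4.67e-05) and by 2.10 on the dimmer one (adjusted p = 3.43e-05). They exceeded wild-type MDPs by 3.59 (adjusted p = 3.11e-04), or 4.45 without wild-type pool 3, and by 2.30 on the dimmer one (adjusted p = 1.95e-05). No Lpl difference was called among MDPs. Knockout-labelled minus wild-type was -0.70 with wild-type pool 3 and 0.16 without it. On the dimmer probe set macrophages had 5.42, 5.91 and 6.54, granulocytes 3.61 to 4.18, wild-type MDPs 3.38 to 4.17 and the other 8 MDP pools 3.21 to 3.50.

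Cd36 was also highest in macrophages on its brightest probe set. Macrophages had 7.28, 7.06 and 8.17, and granulocytes 3.20, 5.03 and 3.68. Wild-type MDPs had 4.25, 4.10 and 5.04, knockout-labelled MDPs 3.83, 3.90 and 3.72, VENUS-positive MDPs 4.16, 4.42 and 4.43, and VENUS-negative MDPs 3.52 and 3.86. Macrophages were above all other arrays, granulocyte pool 2 and wild-type pool 3 were the highest of the rest, and the knockout-labelled pools lay below the wild-type ones without overlap (log2 difference -0.64, adjusted p = 0.799, and -0.35 without wild-type pool 3).

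The macrophage excess in Cd36 over granulocytes was 3.53 log2 units (SE 0.39, adjusted p = 1.31e-05) on this probe set and 2.55 (SE 0.27, adjusted p = 9.04e-06) on the next, on which macrophages had 5.22, 5.41 and 5.96 and the 14 other arrays 2.54 to 3.91. Over wild-type MDPs it was 3.04 (adjusted p = 6.49e-05) and 2.38 (adjusted p = 2.23e-05). The third Cd36 probe set was dim on all arrays, at 2.33 to 3.12. It was higher in macrophages than in wild-type MDPs by 0.54 (adjusted p = 0.00979) and higher than in granulocytes by 0.28 (adjusted p = 0.155). Granulocytes were not called against wild-type MDPs on the brightest probe set (log2 difference -0.49, adjusted p = 0.351, and -0.20 without wild-type pool 3), but without granulocyte pool 2 they were (-1.02, adjusted p = 0.0263).

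**Figure D3:**
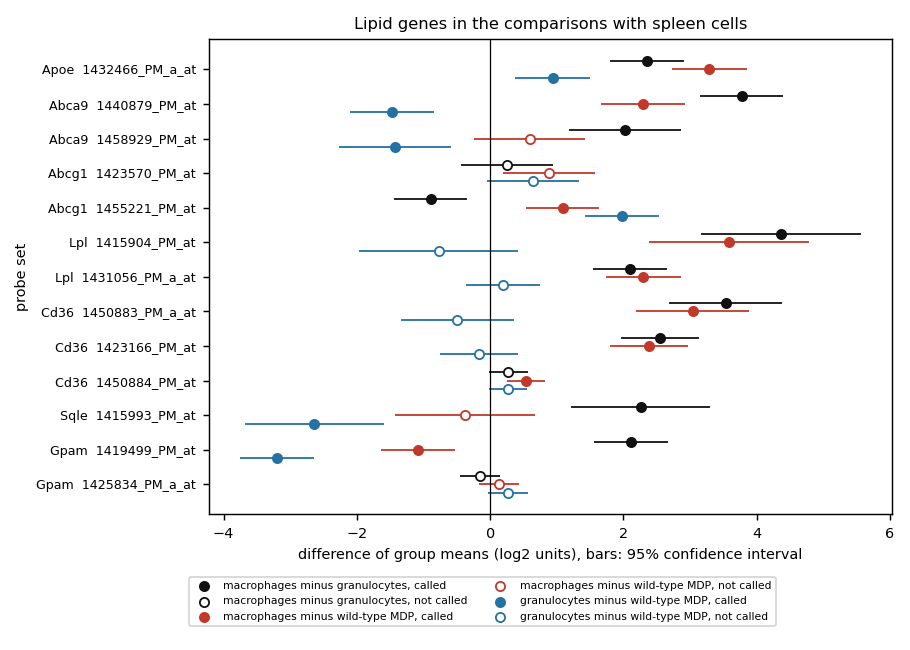
Difference of group means in log2 units (x axis) for the 13 probe sets (y axis) in the 3 comparisons among macrophages, granulocytes and wild-type MDPs, with 95% confidence intervals. Lpl and Cd36, except its dimmest probe set, lie far to the right for macrophages against both other groups. The brighter Gpam probe set lies at -3.20 for granulocytes minus wild-type MDPs.

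Sqle was low in granulocytes and spread widely among MDPs. Macrophages had 6.04, 5.77 and 5.43 and granulocytes 3.44, 3.67 and 3.35. Wild-type MDPs had 6.43, 4.93 and 7.02, knockout-labelled MDPs 5.17, 5.35 and 6.49, VENUS-positive MDPs 6.89, 5.74 and 6.22, and VENUS-negative MDPs 6.07 and 4.99. Every granulocyte pool was below every other array, and the other 5 groups overlapped with their neighbours in the order of means. Granulocytes were below macrophages (macrophages minus granulocytes 2.26, SE 0.49, adjusted p = 0.00333) and below wild-type MDPs (log2 difference -2.64, SE 0.49, adjusted p = 6.01e-04). Macrophages and wild-type MDPs differed by -0.38 (adjusted p = 0.718), with the wild-type pools spanning the macrophage ones, and by 0.07 without wild-type pool 3.

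On the brighter of its probe sets, Gpam was highest in MDPs, lower in macrophages and lowest in granulocytes. Its brighter probe set had 7.11, 7.38 and 7.48 in wild-type, 7.61, 7.45 and 7.89 in knockout-labelled, 6.81, 7.05 and 7.53 in VENUS-positive and 8.46 and 7.87 in VENUS-negative MDPs. Macrophages had 6.17, 6.63 and 5.93, and granulocytes 3.63, 4.43 and 4.30. The spleen groups did not overlap with each other or with any MDP group, and neighbouring MDP groups did.

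On the brighter Gpam probe set granulocytes were 9.21-fold below wild-type MDPs (log2 difference -3.20, SE 0.26, adjusted p = 2.79e-07). Macrophages were 2.12-fold below wild-type MDPs (log2 difference -1.08, adjusted p = 0.00793). Macrophages were above granulocytes by 2.12 log2 units (SE 0.26, adjusted p = 3.01e-05). VENUS-negative MDPs were above VENUS-positive ones by 1.03 (SE 0.29, 95% interval 0.41 to 1.66), which missed the threshold (adjusted p = 0.0618) and passed it without VENUS-positive pool 3 (adjusted p = 0.0359) or granulocyte pool 1 (0.036). The dimmer Gpam probe set lay between 4.88 and 5.91 on all arrays and did not repeat the spleen difference (log2 difference -0.15, SE 0.14, adjusted p = 0.49). Nor did it repeat the differences from wild-type MDPs. Granulocytes lay above them without overlap (log2 difference 0.27, adjusted p = 0.141), and macrophages minus wild-type was 0.13 (adjusted p = 0.659). Across the 17 arrays the Gpam probe sets correlated at r = 0.132.

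**Figure D4:**
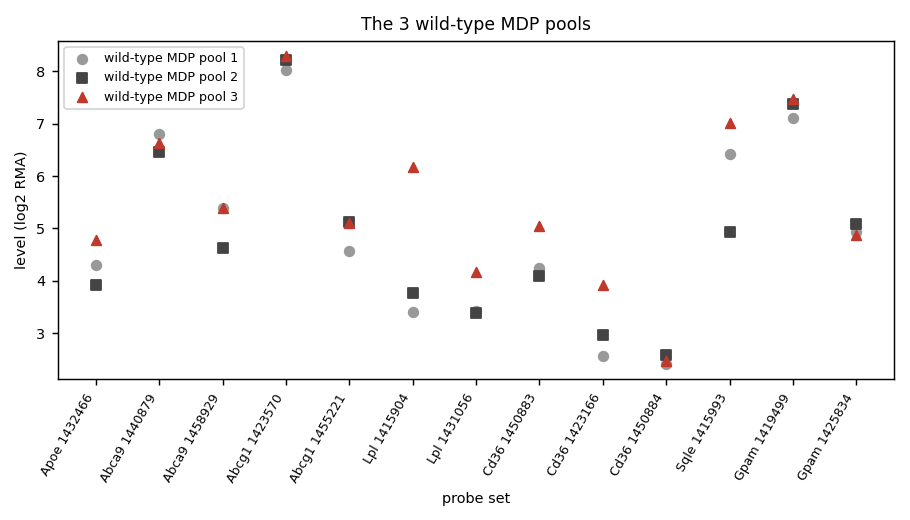
Level (log2 RMA) of the 13 probe sets in the 3 wild-type MDP pools, 1 symbol for each pool. Pool 3 stands above the others for Lpl (6.17 against 3.41 and 3.77) and Cd36 (5.04 against 4.25 and 4.10), and lies among them for Abca9.

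Other genes of these pathways were read from 8 lists with 139 genes, of which 122 were measured, each by its brightest probe set, with the members left out. Among MDPs few were called. Between knockout-labelled and wild-type MDPs 0 of 122 genes were called by limma, where 0.784% of 17097 genes were, and 14 had an unadjusted p under 0.05 (11.5%, against 8.59% of all genes). Between VENUS-negative and VENUS-positive MDPs 8 were called, 5 higher and 3 lower, where 5.4% of all genes were, 2.59% higher and 2.81% lower. The largest was Acss2, which makes acetyl-CoA from acetate, at 8.23 ± 0.45 against 4.41 ± 0.46 (log2 difference 3.82, SE 0.53, adjusted p = 5.38e-04). The lipin genes Lpin1 (2.81, adjusted p = 0.00566) and Lpin2 (1.90, adjusted p = 3.66e-04), whose enzymes make diacylglycerol, were higher as well. So were Abcg2 (1.35, adjusted p = 0.019), an ABC transporter, and Elovl1 (1.01, adjusted p = 0.0309), a fatty acid elongase. Fdps, of cholesterol synthesis, was lower (-1.91, adjusted p = 0.0176), as were Mbtps2, a protease that activates sterol regulatory factors (-1.14, adjusted p = 0.00652), and Scarb2 (-1.05, adjusted p = 0.0254), a lysosomal membrane protein.

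Macrophages exceeded granulocytes in 45 of the 122 genes and were below them in 15, where 29.6% of all genes were called, 17.6% higher and 12% lower. All 7 called of 13 genes of cholesterol export, storage and lysosomal release were higher, led by Pltp, the phospholipid transfer protein (log2 difference 4.17, adjusted p = 4.72e-09), Scarb1, a lipoprotein receptor (3.75, adjusted p = 8.59e-08), and Cyp27a1, which oxidises cholesterol (3.53, adjusted p = 1.40e-06). Of 16 genes of lipid uptake and fatty acid binding 6 were higher and 3 lower, with Fabp4, a fatty acid binding protein, at 5.07, the lipoprotein receptor gene Lrp1 at 4.57 and the scavenger receptor gene Msr1 at 3.92. Of 13 sensing genes 6 were higher and 2 lower, among them Pparg, a nuclear receptor for fatty acids (2.45), Insig1, which holds back sterol synthesis (2.30), and Srebf2 (1.70), an activator of that synthesis. Cholesterol synthesis had 6 of 15 higher and 1 lower, with Cyp51 at 2.00, Idi1 at 1.89 and Sc5d at -1.83. Fatty acid oxidation had 6 of 14 higher and 0 lower at the adjusted threshold, led by Hadh (4.45), Decr1 (1.94) and Echs1 (1.68).

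Fatty acid synthesis and activation had 8 of 17 higher in macrophages and 1 lower, with the elongase genes Elovl7 at -2.67, Elovl5 at 2.15 and Elovl6 at 2.06. Glycerolipid synthesis and lipid droplets had 4 of 20 higher and 6 lower. The latter included Dgat1, which completes triglyceride synthesis, at 6.52 ± 0.26 in macrophages and 10.06 ± 0.39 in granulocytes (log2 difference -3.54, SE 0.32, adjusted p = 1.78e-06), Gpat3, an acyltransferase of the step that Gpam catalyses (-2.97, adjusted p = 8.10e-07), and G0s2, an inhibitor of triglyceride breakdown (-2.83, adjusted p = 9.87e-06). Of 14 other ABCA and ABCG transporters 2 were higher and 2 lower, with Abca13 at -2.77, Abcg3 at 2.60 and Abca3 at 1.74.

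Against wild-type MDPs, macrophages were higher in 33 of the 122 genes and lower in 15, where 22.4% of all genes were called, 10.9% higher and 11.5% lower. Cholesterol export, storage and lysosomal release again had no lower call, with 8 of 13 higher, among them Apoc2 (4.57), an apolipoprotein that activates lipoprotein lipase, Pltp (4.33) and Cyp27a1 (3.32). Lipid uptake had 5 of 16 higher and 2 lower, with Fabp4 at 5.73, Lrp1 at 4.44 and Msr1 at 3.91. Sensing had 5 of 13 higher and 2 lower, with Pparg at 2.57, the sterol receptor gene Nr1h3 at 2.05 and Insig1 at 1.38. Of cholesterol synthesis 2 of 15 were called, Cyp51 (1.79) and Mvd (1.62), both higher. Fatty acid synthesis had 1 of 17 higher and 5 lower, with Elovl6 at -2.30 and the desaturase genes Fads2 and Fads1 at -2.19 and -1.82. Glycerolipid synthesis had 6 of 20 higher and 1 lower, with Agpat4 at 4.23, Plin2, a lipid droplet coat protein, at 1.53 and Agpat3 at 1.36. Fatty acid oxidation had 1 of 14 higher, Slc25a20 (1.04), and 4 lower, led by Decr1 (-1.73) and Hadh (-1.24). Transporters had 5 of 14 higher and 1 lower, with Abcg3 at 4.97, Abcg2 at -1.80 and Abca3 at 1.58.

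Granulocytes were higher than wild-type MDPs in 30 of the 122 genes and lower in 37, where 43.8% of all genes were called, 21.3% higher and 22.6% lower. Fatty acid oxidation had 9 of 14 lower and 1 higher, led by Hadh at 4.32 ± 0.57 against 10.01 ± 0.38 (log2 difference -5.69, SE 0.30, adjusted p = 4.13e-09), Decr1 (-3.67) and Echs1 (-2.38). Fatty acid synthesis had 9 of 17 lower and 2 higher, with Elovl6 at -4.35, Fads1 at -3.14 and Acsl3 at -2.58. Glycerolipid synthesis and lipid droplets had 9 of 20 higher and 1 lower, with G0s2 at 3.67, Gpat3 at 3.48 and Dgat1 at 3.09. Gpam was lower on its brighter probe set (-3.20) but not on its dimmer one. Cholesterol synthesis had 5 of 15 lower, with Dhcr7 at -2.27 and Fdps at -1.99, and 1 higher, Sc5d at 1.80. Sensing had 3 of 13 higher and 6 lower, with Mbtps2 at -1.80, Ppard at 1.39 and Srebf2 at -1.07. Export had 2 of 13 higher, Npc1 at 1.52 and Apoc2 at 1.32, and 3 lower, led by Scarb1 at -2.23. Uptake had 6 of 16 higher and 2 lower, with Lipg at 3.20, Slc27a4 at 2.74 and Olr1 at 1.87. The Olr1 pools overlapped, with granulocytes at 6.085, 4.51 and 2.81 and wild-type MDPs at 2.20, 2.20 and 3.40. Transporters had 6 of 14 higher and 2 lower, with Abca13 at 2.57, Abcg3 at 2.37 and Abcg2 at -1.58. Abca13 was uneven among granulocyte pools, at 7.14, 3.99 and 4.67, all above the wild-type ones. Without wild-type pool 3 the totals were 30 higher and 33 lower here. Lower genes fell from 5 to 3 in cholesterol synthesis, from 6 to 5 in sensing and from 9 to 8 in fatty acid oxidation. Higher genes fell from 6 to 4 among transporters and from 2 to 1 in fatty acid synthesis. They rose from 6 to 7 in uptake and from 9 to 11 in glycerolipid synthesis. For macrophages the totals without that pool were 33 higher and 14 lower. Higher genes fell from 8 to 7 in export, from 5 to 4 in sensing and from 5 to 4 among transporters. They rose from 6 to 8 in glycerolipid synthesis and from 1 to 2 in fatty acid oxidation. Lower genes fell from 1 to 0 in glycerolipid synthesis and from 4 to 3 in fatty acid oxidation. Lower transporters rose from 1 to 2.

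**Figure D5:**
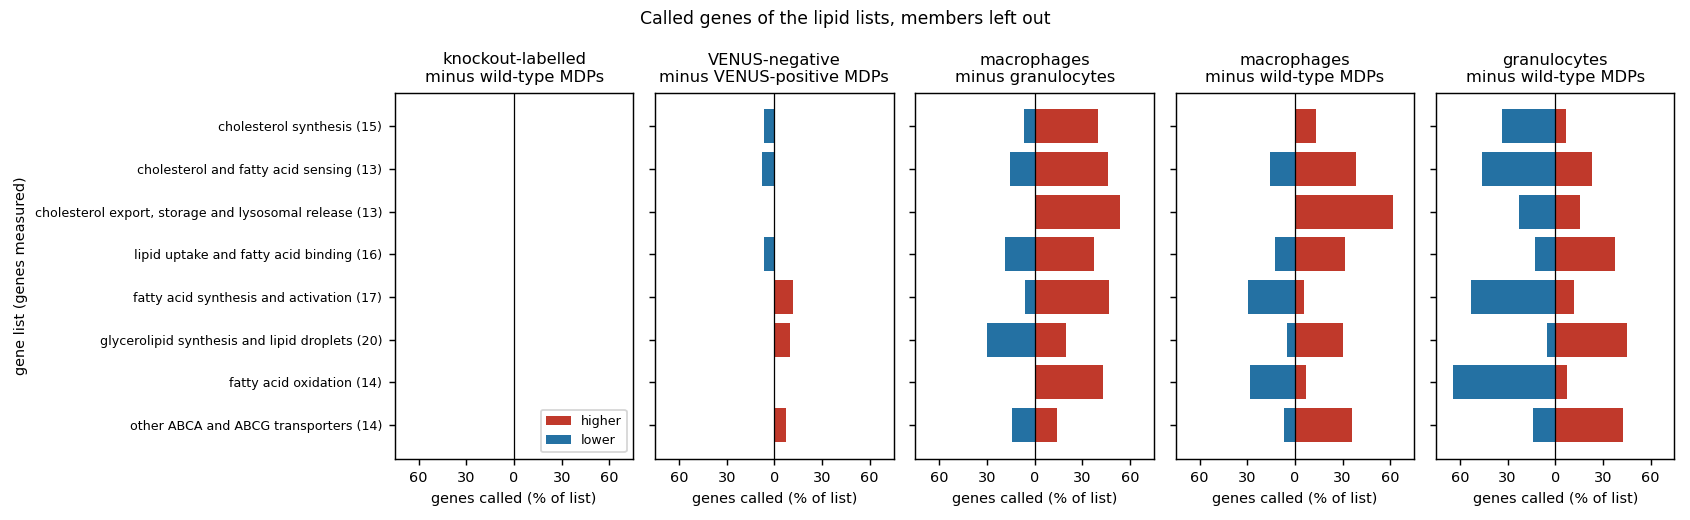
Share of each list's measured genes (in brackets) called higher (right) or lower (left) in 5 comparisons, in percent of the list. The knockout panel is empty because 0 of 122 genes were called, the export list has bars only to the right for macrophages, and fatty acid oxidation has its longer bar to the left for granulocytes minus wild-type MDPs.

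For each member whose group means spanned at least 2 log2 units, the 2 genes with the most similar profile over the 17 arrays were found. The measure was the root mean square difference of the profiles, each centred on its own mean, in log2 units. Gpam was followed most closely by Mrpl12, a mitochondrial ribosomal protein gene, at 0.31 and Nop56, a nucleolar protein gene, at 0.35, where the median over genes was 1.39. Cd36 was nearest to Nectin1 (0.42) and Cyp27a1 (0.45), and Lpl to Ms4a8a (0.49) and Msr1 (0.51). The Lpl neighbours shared its high value in wild-type pool 3, at 6.35 for Ms4a8a against 4.18 and 4.12 in the other wild-type pools, and 6.25 for Msr1 against 4.60 and 4.66. Sqle was nearest to Nubp1 (0.47) and Ddx59 (0.50), and Apoe to Slc12a2 (0.54) and Prkch (0.59). Abca9 had the least close neighbours, Hfe (0.69), an iron regulator, and Dusp22 (0.85), with a median over genes of 1.84. Hfe was at 8.06, 7.37 and 7.36 in knockout-labelled, 5.82, 5.40 and 6.96 in wild-type and 3.78 and 3.38 in VENUS-negative MDPs. Each gene was represented here by its brightest probe set, on which the group means of Abcg1 spanned 1.82, so no search was made for it.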

How the data were processed

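The values of the 17 arrays are log2 values that the authors deposited, made with Affymetrix Expression Console and RMA (background correction, normalization and probe summary), per the submitters' processing notes. No source used here gives their versions. Probe sets were named from the platform annotation. Groups were compared with limma 3.58.1 (lmFit, eBayes, two-sided tests) under R 4.3.3, with a mean per group over all 17 arrays and 45037 probe sets, tested on simulated data. P-values were adjusted after Benjamini and Hochberg over all probe sets, also for pathway genes. Members and lists were chosen with earlier results of these data known. Named were all member probe sets, up to 3 called genes with the largest difference per list and comparison, the 2 most alike genes and markers. P-values reflect only the spread between pools, and precision is limited by the number of arrays. Alternatives were an intensity trend with a robust prior, arrays centred on their medians, the compared groups alone, 1 probe set per gene, a filter on dim probe sets, a replicate block and leaving out each array.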

Additional observations from a re-analysis of the deposited data

Results flagged for a closer look

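The effect of VENUS sorting and that of the knockout label differed for 3 member probe sets, by a test of the difference itself (VENUS-negative minus VENUS-positive, less knockout-labelled minus wild-type, limma's adjusted p). The brighter Abca9 probe set differed by -4.41 log2 units (adjusted p = 5.74e-05), with all 3 knockout-labelled pools above the wild-type ones and both VENUS-negative pools below the VENUS-positive ones. The dimmer Abca9 probe set differed by -2.64 (adjusted p = 0.0282), with the same positions of the pools. Among all probe sets, pools did not overlap for 13.6% in the knockout and 27.7% in the VENUS comparison. Apoe differed by 1.69 (adjusted p = 0.0351), with both VENUS-negative pools above the VENUS-positive ones and overlapping pools in the knockout comparison. The brighter Abca9 probe set kept its call in a fit of the 4 groups alone and in all 17 fits without 1 array. The dimmer one lost it in the former (adjusted p = 0.118) and in 6 of the latter, and Apoe in the former (adjusted p = 0.0665) and in 9 of the latter. The part of the cell type markers in these differences was not tested.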

How the results depend on the processing

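Under the 6 settings other than leaving out an array, 415 of 426 single values kept their side of the threshold, 5 lost a call, 6 gained one and 0 called values changed sign. Without 1 array, 1297 of 1326 did, 21 lost a call and 8 gained one, again with 0 called values reversed. Signs of uncalled values changed 3 and 28 times. With only the compared groups, 46 probe sets were called for the knockout comparison in place of 259 (0 members), 536 for VENUS and 673 for the difference of the effects (1 member). With 1 probe set per gene, 155, 1003, 5337, 4038, 7720 and 615 were called for knockout, VENUS, macrophages against granulocytes, macrophages and granulocytes against wild-type MDPs, and the difference of effects, with fewer tested, and 6 and 5 members for the macrophage comparisons. Without dim probe sets, 4 members were called for VENUS. Leaving out 1 array gave, in that order, 177 to 288, 1535 to 2184, 8262 to 12264, 6522 to 8950, 14154 to 17694 and 827 to 1143 probe sets, and 1 to 1, 2 to 4, 9 to 10, 9 to 10, 5 to 7 and 1 to 3 members. The cause was not tested. Same-numbered pools did not deviate together (r = -0.0749 to 0.115), so the numbers are not taken as pairs. With the pool number as a replicate block 259, 1866, 10994, 8504, 17086 and 961 probe sets and 1, 2, 10, 9, 6 and 3 members were called. The dimmest Cd36 probe set lay at 2.33 to 3.12, below the lower quartile of every array, so its differences say little.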

Other observations

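VENUS-positive and wild-type MDPs were also set side by side. By limma 0 of 45037 probe sets were called, while 2661 (5.91%) had an unadjusted p under 0.05. None of the 13 member probe sets did, with 0.0936 as their smallest unadjusted p and 0.59 log2 units as their largest difference, for Lpl, whose wild-type pool 3 was the high one.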
